A study of Mus musculus with 8 samples.

Results

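A set of 10 genes of MHC class I antigen presentation was examined in mouse liver RNA-seq, taken by their gene symbols as H2-K1, H2-D1, B2m, Tap1, Tap2, Tapbp, Psmb8, Psmb9, Psmb10 and Nlrc5. Each symbol matched 1 row, giving 10 of the 27179 genes in the table. The libraries came from livers of adult male C57BL/6NHsd mice after a 6 h fast, 4 of them wild-type and 4 homozygous for V227A, a valine-to-alanine substitution in the nuclear receptor PPARα, which turns on genes of fatty acid oxidation in the fasted liver. The allele was introduced by base editing of zygotes with NG-ABEmax and carried on from a single heterozygous founder, so that the mutants represent a single edited line and every cell type of the liver carried the substitution. The study was designed to compare the genotypes. Here each gene has one level, the mean that the authors took over all 8 libraries of both genotypes, and the genotypes were therefore not compared.

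MHC class I molecules display peptides from the inside of the cell to CD8 T cells. Proteasomes cut proteins into peptides, the TAP transporter carries these into the endoplasmic reticulum, and tapasin helps to load them onto a heavy chain paired with β2-microglobulin before the complex moves to the surface. Interferons induce most of these genes, among them the immunoproteasome subunits, which then take the place of the constitutive catalytic subunits. NLRC5 is the transactivator that drives class I promoters through a complex bound at the X and Y boxes. Hepatocytes carry class I molecules at their surface.

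The stretches of promoter that join 2 of these boxes are shown first because the 3 most abundant members shared their spacing. All are GRCm38.p6 sequence from RefSeq, written 5′ to 3′ on the strand of the gene, and positions are counted from the base before the RefSeq start, -1. Capitals mark TGACG, the core of the CRE-like X2 box, and ATTGG, the Y box or inverted CCAAT. The H2-K1 stretch lies at chr17:34000359-34000388 on the minus strand, the H2-D1 stretch at chr17:35262993-35263022 on the plus strand and the B2m stretch at chr2:122147609-122147638 on the plus strand.
H2-K1: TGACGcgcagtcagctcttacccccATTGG
H2-D1: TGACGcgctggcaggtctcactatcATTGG
B2m: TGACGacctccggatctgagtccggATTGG

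In all 3 stretches the ATTGG began 25 bases after the start of the TGACG. The H2-K1 and H2-D1 stretches were identical at 23 of 30 bases, whereas B2m matched H2-K1 at 13 and H2-D1 at 12, including the 10 bases of the boxes themselves. This spacing, singled out after the sequences had been read, occurred on either strand in 31 of 32851 RefSeq promoter windows (0.0944%), while TGACG followed by ATTGG at any distance occurred in 2.83%. The 31 windows include those of these 3 members, with both windows of H2-K1. H2-M3, a class I heavy chain gene, was also among the genes whose windows held the spacing, but most of these genes were not class I genes.

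A second pair of stretches, further from the start, was shared by the 2 heavy chain genes. Capitals mark the kappa B core GGGNNTTCC and, on the other strand, GAANNGAAA. The latter is an interferon-stimulated response element core with its GAAA and GAA parts in reversed order. It was added to the search after the sequences had been seen. The H2-K1 stretch lies at chr17:34000429-34000458 on the minus strand and the H2-D1 stretch at chr17:35262923-35262952 on the plus strand.
H2-K1: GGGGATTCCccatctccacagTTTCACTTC
H2-D1: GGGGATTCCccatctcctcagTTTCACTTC

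These were identical at 29 of 30 bases. Both printed H2-D1 stretches lie before its RefSeq start but inside the 5′ UTR of a GENCODE vM21 transcript, H2-D1-202, that begins further upstream. Over the 240 bases at which the complete windows of both genes could be set against each other without gaps, 176 bases (73.3%) were identical. The bases before the start are given for H2-K1 (chr17:34000348-34000597, minus strand) and B2m (chr2:122147437-122147686, plus strand), which had the highest levels per length among the members. Capitals mark every match on either strand to the motifs described here, including GAAANNGAA, the interferon-stimulated response element core, in B2m.
H2-K1: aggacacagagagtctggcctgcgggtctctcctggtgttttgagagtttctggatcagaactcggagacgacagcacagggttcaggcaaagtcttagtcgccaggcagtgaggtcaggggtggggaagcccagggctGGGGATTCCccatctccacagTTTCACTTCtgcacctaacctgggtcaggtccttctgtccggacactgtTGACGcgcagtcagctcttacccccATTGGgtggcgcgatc
B2m: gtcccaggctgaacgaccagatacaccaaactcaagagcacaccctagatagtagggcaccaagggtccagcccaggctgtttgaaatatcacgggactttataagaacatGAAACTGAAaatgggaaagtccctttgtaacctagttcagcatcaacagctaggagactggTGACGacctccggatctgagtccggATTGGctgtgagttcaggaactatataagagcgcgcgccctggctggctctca

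RefSeq promoter windows of 300 bases, from 250 before to 50 after the start, were matched for 8 of the members, with 2 windows for H2-K1. Tap2 and Nlrc5 had no entry. The windows of H2-D1, Tapbp, Psmb8 and Psmb9 lie wholly within the GENCODE vM21 bounds of these genes, which begin further upstream. TGACG was found in the windows of H2-K1, H2-D1, B2m, Tap1 and Psmb9, 5 of the 8, and in 20.8% of all windows. ATTGG was found in those 5 and in Tapbp, and in 37.4% of all windows. The kappa B core was found in H2-K1 and H2-D1 (5.82% of all windows), GAAANNGAA in B2m alone of the members (8.56%), GAANNGAAA in H2-K1 and H2-D1 (7.52%) and TTCNNNGAA, the gamma-activated site, in Psmb8 alone of the members (8.30%). No member window held AGGTCANAG, the first part of the direct repeat that PPARα binds with its partner RXR, which was present in 2.01% of all windows. The Psmb10 window held none of the motifs. A match is only a description of the letters in these windows, and the lack of one says only that the letters are not there.

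**Figure D1:**
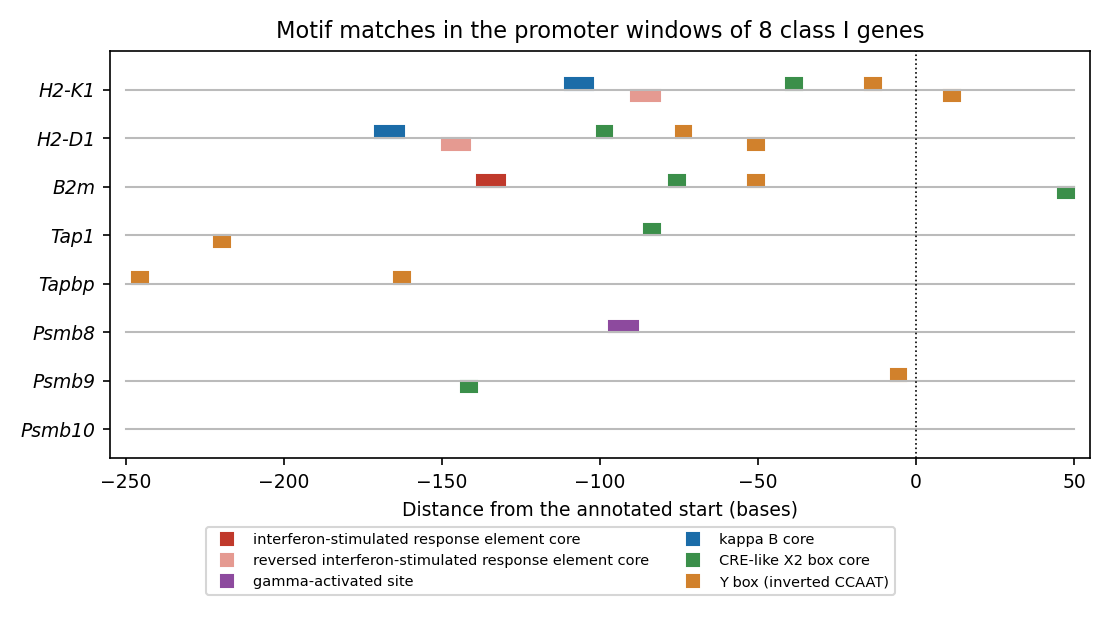
Motif matches in the promoter windows of 8 class I genes, with position in bases from the RefSeq start on the horizontal axis, 1 line per gene (the first window of H2-K1), and boxes above the line for the strand of the gene and below it for the other strand. TGACG and ATTGG begin 25 bases apart in H2-K1, H2-D1 and B2m, and the Psmb10 line carries no match.

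Of the members, 7 lie in the MHC on chromosome 17, within 1351601 bases of GRCm38 (chr17:33915899-35267499, GENCODE vM21). Tap1 (34187553-34197225), Psmb8 (34197721-34201454) and Tap2 (34203527-34216321) follow each other on the plus strand, with 495 bases between Tap1 and Psmb8 and 2072 between Psmb8 and Tap2. Psmb9 (34181987-34187764) points the other way and its annotated exons overlap those of Tap1 by 212 bases. The RefSeq starts of Tap1 and Psmb9 are 225 bases apart and their windows share 275 bases, so that the TGACG and ATTGG matches counted for one are the same bases as those counted for the other. Tapbp (33915899-33929292, plus strand) lies 66724 bases from H2-K1 (33996017-34000347, minus strand), and H2-D1 (35262730-35267499, plus strand) is set 1046408 bases beyond Tap2. The remaining members lie elsewhere, B2m on chromosome 2 (122147686-122153083, plus strand), Nlrc5 on chromosome 8 (94434356-94527272, plus strand) and Psmb10 on chromosome 8 (105935735-105938444, minus strand).

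All 10 genes had reads in the liver. Of the 27179 genes, 8242 stood at the lowest value of the table, which is that of genes without reads, and 18937 had reads. The lowest value corresponds to about 27474001 reads per library, if the authors kept the default prior count of 2 of their software, and numbers of reads below are estimates from it. Levels are given in CPM, counts scaled to a common library size, after subtraction of the lowest value. Because longer transcripts give more reads, levels of single genes are set against each other as CPM per kb, the CPM divided by the mean length of the gene's protein-coding transcripts. For H2-K1, H2-D1, Tap1, Tap2, Tapbp and Nlrc5 this mean was shorter than the longest coding sequence, for Tap2 1399 against 2106 bases. Their CPM per kb is thus higher than with the coding length, and that of B2m and the immunoproteasome subunits is lower. Shares of reads, marker sums and positions among all genes that are said to be by CPM carry no correction for length. Where a ratio moved by over 1.5 times or turned round with the longest protein-coding transcript, the coding length or all exons merged in place of the mean length, its range is given beside it. Intervals are 95% Poisson intervals on the estimated reads of all libraries together. They cover counting error only and not the spread between mice, which was not analysed here, so that no difference between genes could be set against it.

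The light chain and the heavy chains were among the most abundant liver transcripts. B2m, the light chain shared by all classical class I molecules, had a mean log2 CPM of 10.32, equal to 1277 CPM, from about 35087 reads per library. H2-K1, the heavy chain of the K molecule, had 10.33, or 1286 CPM, from about 35326 reads per library. H2-D1, the heavy chain of the D molecule, had 8.76, or 435 CPM. These 3 genes were in the top 5% of genes with reads, both by CPM and per kb.

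Per length the order of the 3 was B2m, H2-K1 and H2-D1. B2m stood at 1485 CPM per kb (counting interval 1480 to 1491), H2-K1 at 1173 (1169 to 1178) and H2-D1 at 450 (447 to 453). B2m was thus 1.27 times H2-K1, and H2-K1 was 2.61 times H2-D1. Set against the pair of heavy chains together, the B2m level per kb was 0.915 of their sum, but above the sum with the other transcript lengths, at 1.48 times with the longest transcript, 2.29 with the coding length and 2.45 with merged exons. The order of the 3 held with all of these lengths, while B2m moved to as much as 3.39 times H2-K1.

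The loading and transport genes were far lower. Tapbp, which encodes tapasin, had a mean log2 CPM of 6.59 and 73.5 CPM per kb (72.5 to 74.5), from about 2652 reads per library. H2-D1, the next gene above it, was 6.12 times as high per kb. The subunits of the TAP transporter, Tap1 and Tap2, had mean log2 CPM of 4.58 and 4.37. Per kb Tap1 was 0.786 of Tap2, with 11.6 CPM per kb (11.3 to 11.9) against 14.8 (14.4 to 15.2). This order turned round with the longest transcript (1.34) and the coding length (1.12) and held with merged exons (0.796). Tapbp was 6.33 times Tap1 on the same scale, and 4.13 times with the longest transcript.

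The immunoproteasome subunits lay between Tapbp and Tap1 per length. Psmb8, which encodes the chymotrypsin-like subunit β5i, had 28.5 CPM per kb (27.8 to 29.3), Psmb10, encoding β2i, had 23.2 (22.7 to 23.8) and Psmb9, encoding β1i, had 13.5 (12.9 to 14.1). Psmb8 was 1.23 times Psmb10 and 2.11 times Psmb9. Psmb9 had the fewest reads of all members, about 286 per library. Psmb8 fell below Psmb10 with each of the other lengths (0.445 to 0.873 times), Tap2 below Psmb9 with the longest transcript and the coding length, and Psmb9 below Tap1 with the longest transcript and merged exons.

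Nlrc5, the transactivator, was the lowest member per length. It had a mean log2 CPM of 4.21 from about 505 reads per library, and 3.54 CPM per kb (3.43 to 3.65) over its mean transcript length of 5199 bases. Tap1, the next gene above, was 3.28 times as high, or 2.01 times with merged exons. From B2m to Nlrc5 the members thus spanned 3.54 to 1485 CPM per kb, with a median of 25.9, where the median of all genes with reads and a known length was 1.97. With the other lengths the members' median lay between 12.9 and 34.8 and that of all genes between 1.07 and 4.02.

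**Figure D2:**
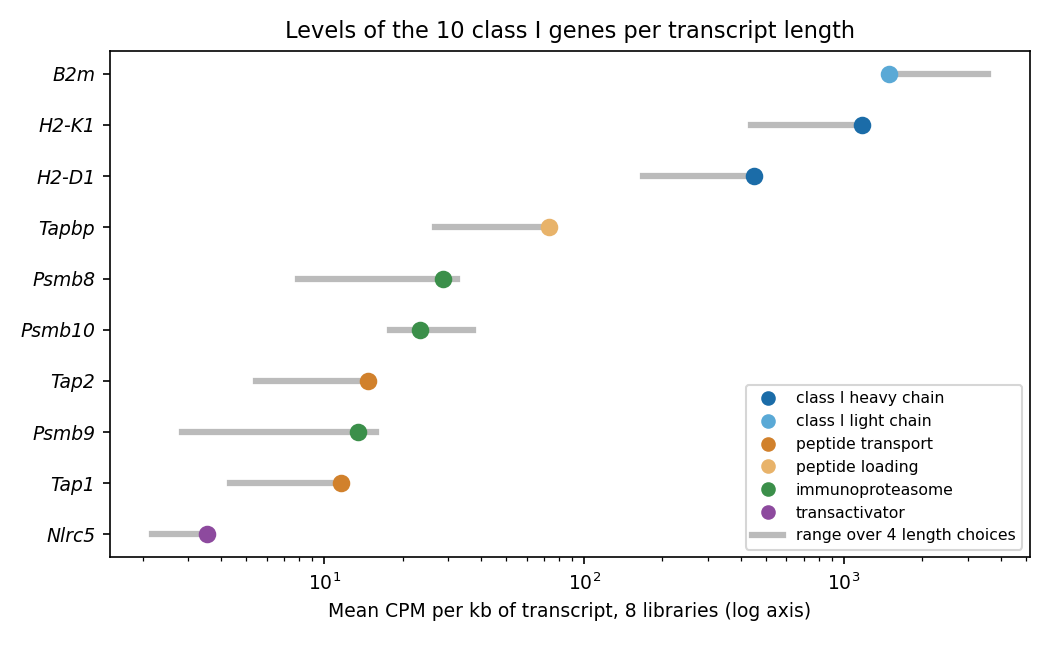
Levels of the 10 class I genes, as CPM per kb of mean protein-coding transcript on a log axis. Grey bars run from the lowest to the highest level over the mean, longest, coding and merged-exon lengths and are not counting intervals. B2m, H2-K1 and H2-D1 lie above 400 CPM per kb, Tapbp at 73.5, the immunoproteasome and transporter genes between 11.6 and 28.5, and Nlrc5 at 3.54.

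Per kb, 2 of the members lay in the top 1% of genes with reads, 3 in the top 5%, 4 in the top 10%, 9 in the top 25% and 10 in the top 50%. The fourth in the top 10% was Tapbp, and the member outside the top 25% was Nlrc5. By CPM, the count in the top 25% was 7 and the others were unchanged. Among the 11600 genes with at least 1 CPM, the counts by CPM were 3 in the top 10%, 4 in the top 25% and 9 in the top 50%.

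**Figure D3:**
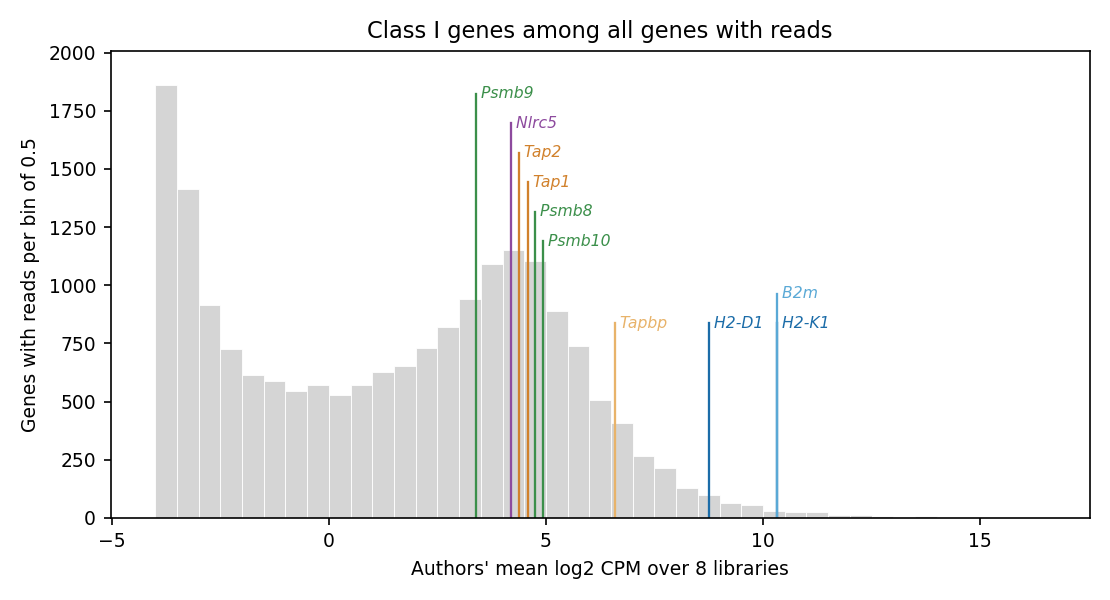
Number of genes with reads in bins of 0.5 of the authors' mean log2 CPM, not corrected for length, with the 10 class I genes as vertical lines whose heights only separate the labels. Those of lower level lie between 3.39 and 4.93, Tapbp at 6.59, H2-D1 at 8.76 and the B2m and H2-K1 lines almost coincide at 10.32 and 10.33.

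Each immunoproteasome subunit was lower than the constitutive subunit whose place it takes. Psmb8 stood at 28.5 CPM per kb against 61.0 for Psmb5, a ratio of 0.468. Psmb9 stood at 13.5 against 183 for Psmb6, a ratio of 0.0737, and Psmb10 at 23.2 against 114 for Psmb7, a ratio of 0.204. The ratios stayed below 1 with every transcript length tried, but ranged from 0.154 to 0.554 for Psmb8, from 0.0364 to 0.0774 for Psmb9 and from 0.204 to 0.463 for Psmb10. With merged exons the Psmb10 ratio, not that of Psmb8, was the highest of the 3.

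**Figure D4:**
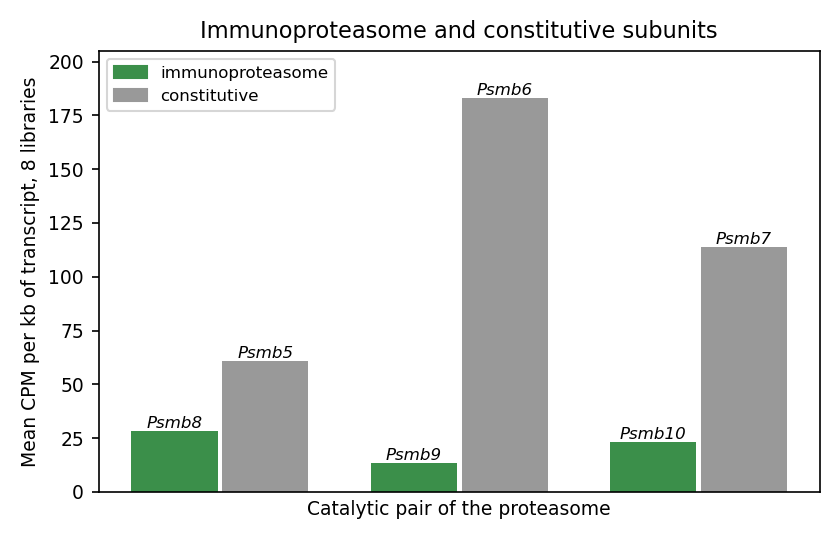
Immunoproteasome subunits beside their constitutive counterparts, as CPM per kb of mean protein-coding transcript. Psmb8, Psmb9 and Psmb10 lie at 28.5, 13.5 and 23.2, and Psmb5, Psmb6 and Psmb7 at 61.0, 183 and 114.

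The other proteasome genes, α and β subunits, activators and subunits of the regulatory particle, numbered 21 and all had reads, with a median of 71.1 CPM per kb. The highest by mean log2 CPM were Psmb4 (140 CPM per kb), Psmb1 (85.0) and Psmb6 (183), and the lowest was Psma3 (9.92). The 11 genes of peptide loading and of the endoplasmic reticulum all had reads too, with a median of 50.8 CPM per kb. Calr, the chaperone calreticulin of the loading complex, was highest at 465 CPM per kb and 6.33 times Tapbp, or 11.8 to 14.0 times with the other lengths. Hspa5, the chaperone BiP, had 181, Pdia3, the disulfide isomerase ERp57 that is bound to tapasin, had 172, and Sec61g, a subunit of the translocon, was lowest at 3.14.

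Among 25 other genes of class I heavy chains and of proteins with the same fold, 20 had reads, H2-M9 and H2-M10.1 stood at the level of genes without reads, and H2-L, H2-Q8 and H2-Q9 were not analysed here. The highest by mean log2 CPM were H2-Q10, a heavy chain that the liver secretes, at 1274 CPM per kb, Azgp1, a secreted lipid-mobilising protein with the class I fold, at 1509, and Fcgrt, the neonatal Fc receptor chain, at 212. H2-Q10 was thus 1.09 times H2-K1 and 2.83 times H2-D1, and up to 1.95 and 5.65 times with the coding length. The lowest with reads was H2-T3, at 0.00294 CPM per kb and under 10 reads per library. The median over the 20 genes was 1.99 CPM per kb.

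Within all 24 of the listed heavy chain and class I fold genes that were in the table, the members included, H2-K1 and H2-D1 together made up 26.0% of the CPM and 32.9% of the CPM per kb. Within the 19 whose symbol begins with H2 they made up 52.4% of the CPM per kb, H2-K1 37.9% and H2-D1 14.5%, beside 41.1% for H2-Q10. With the other lengths the pair made up 38.0% to 49.8% of the H2 genes and H2-D1 8.97% to 13.9%. The order of H2-Q10 and the pair turned round with the longest transcript, at 48.1% for H2-Q10 against 43.4%, and also with the coding length. It held with merged exons, at 41.7% for H2-Q10 against 49.8%. Within all 24 genes the pair made up 23.2% to 24.8% of the CPM per kb with the other lengths. Heavy chain genes resemble each other, which limits how well reads can be assigned. Of the 100-base windows of annotated H2-D1 transcripts, 4.09% were identical to a window of another gene, most of them in H2-Q1, and none of H2-K1 were. At 50 bases the shares were 13.9% for H2-D1 and 6.87% for H2-K1.

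Exons of other members overlap genes on the opposite strand. These overlaps covered 24.9% of the merged exon bases of Tapbp, 18.5% of Tap2, 14.7% of Psmb8, 5.79% of Psmb9, 3.87% of Tap1 and 0.918% of Nlrc5. Of Tapbp, 4.11% was also shared with Zbtb22 on the same strand. The libraries were stranded, but the strand setting of the counting is not given in the sources used here, so the part of these genes' counts that came from their neighbours was not tested.

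The genes that control class I transcription were present at low to moderate levels. All 15 of the regulators listed had reads, with a median of 7.46 CPM per kb. Irf2, an interferon regulatory factor, was at 75.6 CPM per kb and Rela, a subunit of NF-κB, at 30.1. The lowest was Ciita, the class II counterpart of Nlrc5, at 0.106, and Nlrc5 was 33.3 times as high, or 56.0 times with merged exons. Among 9 genes of interferons, their receptors, the receptor kinases and an inhibitor of these kinases, 8 had reads, with a median of 6.76 CPM per kb. Ifnar2 (51.6) and Ifnar1 (17.8), the chains of the type I interferon receptor, and Jak1 (27.3), a kinase of both receptors, were the highest by mean log2 CPM. Ifng and Ifnb1, the interferon genes in the list, were almost undetected. Ifng was the lowest with reads, at 0.0187 CPM per kb and under 10 reads per library, and Ifnb1 stood at the level of genes without reads.

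All 10 of the class II genes listed, which are mainly used by antigen-presenting cells, had reads, with a median of 7.63 CPM per kb. Cd74, the invariant chain, had 51.4 CPM per kb, and H2-Aa and H2-Eb1, chains of the class II molecules, 22.4 and 14.1. The lowest was H2-Oa, a modulator of class II loading, at 0.135. B2m, H2-K1 and H2-D1 were 28.9, 22.8 and 8.75 times as high as Cd74 per kb. With the other lengths these ratios were 30.7 to 43.9, 10.8 to 16.4 and 4.15 to 4.91.

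**Figure D5:**
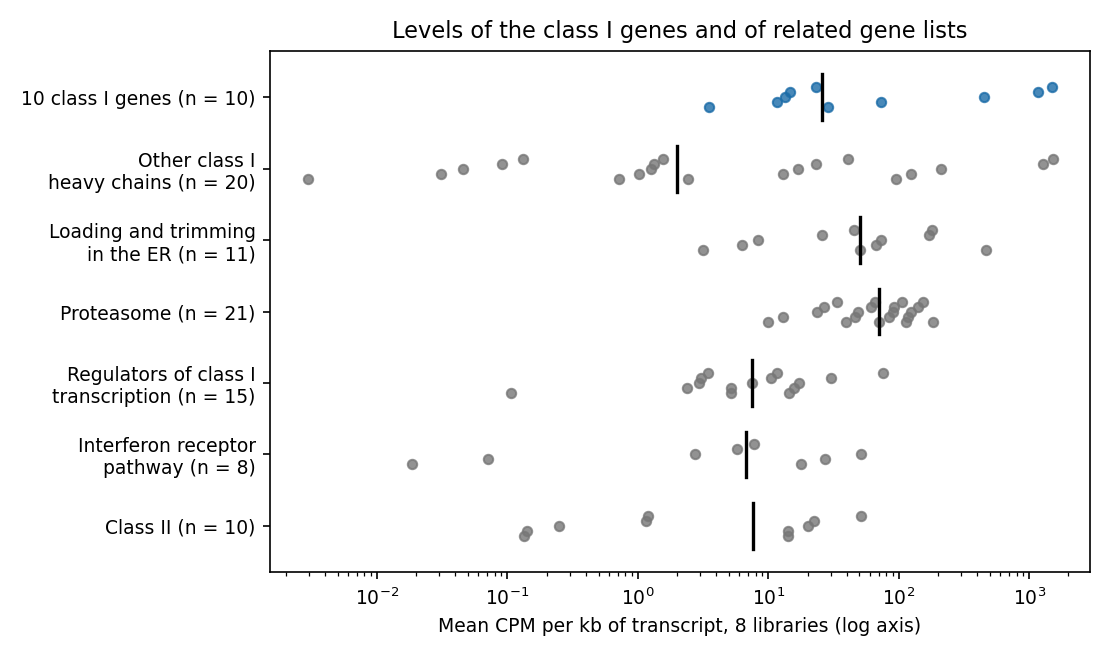
Levels of the 10 class I genes and of 6 related gene lists, as CPM per kb on a log axis, with 1 point per gene with reads and the median of each list. The medians were 25.9 for the class I genes, 1.99 for the other heavy chains, 50.8 for endoplasmic reticulum loading, 71.1 for the proteasome, 7.46 for the regulators, 6.76 for the interferon pathway and 7.63 for class II.

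The marker genes fitted a liver sample dominated by hepatocytes. The 8 hepatocyte markers summed to 100590 CPM, of which Alb, serum albumin, made up 69579. Markers of Kupffer cells and macrophages summed to 196 CPM, of stellate cells to 145, of endothelial cells to 127 and of cholangiocytes to 11.3. Markers of T and NK cells summed to 2.80 CPM, of dendritic cells to 2.60, of B cells to 2.09 and of neutrophils to 0.706. Single genes made up much of some sums. Dcn had 99.6 CPM of the stellate sum, Clec9a 2.15 of the dendritic sum and Cd4 1.26 of the T and NK cell sum. No marker of any list stood at the level of genes without reads. Still, 4 of 7 T and NK cell, 3 of 4 dendritic, 2 of 4 B cell and 3 of 4 neutrophil markers had under 10 reads per library. In these bulk samples, fewer cells of a type and less RNA per cell cannot be told apart, and the part that each cell type had in the class I levels was not tested.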

How the data were processed

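Liver RNA-seq of 4 wild-type and 4 V227A mice was used. Per the study's methods, the authors trimmed reads with Trimmomatic, checked them with FastQC, aligned them with STAR to GRCm38 (mm10), counted with featureCounts and tested with edgeR on Galaxy. Versions, annotation, strand setting and filters are not given in the sources used here. The deposited table holds one log2 CPM value per gene, averaged by the authors over all 8 libraries. Its other 4 numeric columns hold the authors' own genotype comparison (log2 fold change, F, p-value, adjusted p-value) and were not used. Without values per library no test was run, and the genotype comparison planned on counts was not made.

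CPM was 2 to the power of the log2 CPM minus the value of genes without reads (log2 CPM -3.78). Reads per library are estimates for libraries of equal size and the default prior count of 2 in the software that the authors used. The estimate came within 0.1 of a whole total in 99.9% of the 2378 genes near 1 to 5 reads. In simulated libraries of unequal size the estimates were not exact, and the counting intervals do not cover this error. Transcript lengths were from GENCODE vM21 (GRCm38) for 17956 genes with reads (94.8%), and promoters from RefSeq (GRCm38.p6).

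The members and lists were chosen with earlier results of these data known. Named from each list were the 3 genes with the highest mean log2 CPM, the lowest with reads and those without, except that one gene of the regulators is not reported here. Named after their values were seen were H2-M3, H2-Q1, Zbtb22, Alb, Dcn, Clec9a, Cd4 and the genes of the last paragraph. Python 3.11.15, pandas 2.3.3, numpy 2.4.6, scipy 1.17.1 and matplotlib 3.10.9 were used.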

Additional observations from a re-analysis of the deposited data

How the results depend on the processing

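Each member kept its level within counting error when nothing was subtracted from the CPM. The order of the 45 pairs of members per kb held in 41 with the longest protein-coding transcript, 42 with the coding length and 43 with all exons merged. The log2 ratio of Psmb8 to Psmb10, 0.30 as reported, became -0.49 with the longest transcript, -0.20 with the coding length and -1.17 with merged exons. Tap2 to Psmb9, 0.13 as reported, became -0.36 and -0.69 with the longest transcript and the coding length. Psmb9 to Tap1, 0.22 as reported, became -0.067 with the longest transcript and -0.61 with merged exons. Tap1 to Tap2, -0.35 as reported, became 0.43 and 0.16 with the longest transcript and the coding length, and B2m to the sum of H2-K1 and H2-D1, -0.13 as reported, became 0.57, 1.196 and 1.29 with the longest transcript, the coding length and merged exons. The log2 ratio of B2m to H2-K1 moved from 0.34 to 0.90, 1.62 and 1.76 with the longest transcript, the coding length and merged exons. With the longest transcript, the coding length and merged exons, the ratio was 0.320, 0.554 and 0.154 for Psmb8 to Psmb5 and 0.0420, 0.0774 and 0.0364 for Psmb9 to Psmb6. For Psmb10 to Psmb7 it was 0.234 with the coding length and 0.463 with merged exons. These follow from the lengths alone. The share of H2-K1 and H2-D1 was 32.9% per kb and 40.6% of the CPM among H2 genes only, which was added after the data were seen, as were the merged exons for the proteasome ratios, the 50-base windows, the reversed response element, the fixed spacing, the top 25% and the other lengths for ratios outside the order of the members. The top 10% of genes held 4 members in all rankings except that of genes with at least 1 CPM, which gave 3. The top 25% held 7 by CPM, 9 per kb or among all genes of the table and 4 among genes with at least 1 CPM, and the top 50% held 10, or 9 among the last. Medians of other lists per kb moved too, between 31.8 and 90.7 for the proteasome, 27.3 and 82.4 for endoplasmic reticulum loading, 5.71 and 16.3 for the interferon pathway and 3.37 and 10.7 for class II. No paired analysis was possible because the table has no column per library. For the same reason the genotype difference and its alternatives were not run, and neither was protein identity, for which no sequences were used, nor the share among H2-K1, H2-D1 and H2-L alone, since H2-L was not analysed here. Depth limits counting to between 0.369% for H2-K1 and 4.12% for Psmb9, and the spread between mice was not analysed here.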

Other observations

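Nonclassical class I and class I-like genes were also present in the liver, chosen here after their values were seen. Cd1d1, which presents lipids to NKT cells, was at 95.0 CPM per kb, above Tapbp. Hfe, which regulates hepcidin and so iron uptake, was at 23.2, and Mr1, which presents vitamin B metabolites to MAIT cells, was at 1.03. H2-T23, the heavy chain of Qa-1, a peptide-binding ligand of NK cell receptors, was at 123 CPM per kb, the highest of the H2-T genes listed.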
